A study of Mus musculus with 6 samples.

Results

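The semaphorins, plexins and neuropilins were taken as all genes whose GENCODE M21 symbol is Sema3 to Sema7 with a letter, Plxn with a letter and a number, Nrp1 or Nrp2. The names alone selected 31 genes of the 37086 in the files: 20 semaphorins, 9 plexins and 2 neuropilins. RNA came from 1 pool of dorsal root ganglia, which hold the sensory neurons of the trunk and their glia. They were taken at 14.5 days of gestation from 18 embryos of wild-type C57BL/6J mice. The high-volume group had 3 libraries, for which 3, 10 and 30 ng of RNA entered cDNA synthesis in 9 µl with the HV version of the SMARTer Ultra Low Input kit. The low-volume group had 3 libraries from the same inputs in 1 µl with its own kit, so volume and kit cannot be told apart. All 6 libraries are technical repeats of the same pool, and every SD, SE and p-value below measures technical spread, with none of it between animals. Levels are the deposited RPKM, the tags (reads) of a transcript scaled to the length of its exons and to the total tags of its library.

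Semaphorins are ligands that steer growing axons, vessels and migrating cells, mostly by repulsion and in some settings by attraction. Plexins are their signalling receptors, and neuropilins are co-receptors that bind most secreted class 3 semaphorins and pass the signal to a plexin partner. In sensory ganglia, Sema3a and its receptor pair of Nrp1 and a class A plexin are known for keeping peripheral and central sensory axons on their paths.

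The tissue label was checked against its markers. Of 8 sensory neuron markers, 7 had a mean of 1 RPKM or more, with Isl1 at 129 ± 17.9 RPKM (SD, n = 6 libraries), and all 6 glial and all 6 endothelial markers did so too. So did all 6 fibroblast and all 5 macrophage markers, 3 of 4 pericyte markers and 3 of 4 muscle markers, the last led by Mylpf at 22.0 ± 3.51 RPKM. Of 6 spinal cord markers 1 reached 1 RPKM, and Olig2 lay between 0 and 0.016 RPKM. The chosen transcripts held 14160397 tags in the 3 ng, 23511760 in the 10 ng and 25867688 in the 30 ng high-volume library, and 15920990, 26826281 and 31524210 in the low-volume libraries in the same order of input. There were no molecular identifiers, so PCR copies count as tags. In whole ganglia, fewer cells of a type and less RNA per cell cannot be told apart.

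Receptor transcripts outweighed ligand transcripts in summed RPKM, and Nrp1 was the most abundant gene of the family. Nrp1 averaged 37.9 ± 5.55 RPKM (SD, n = 6), higher than 88.7% of the genes tested. No other gene of the family reached a mean of 10 RPKM with the transcript of the most tags taken for each gene. With the transcript of the largest mean RPKM instead, Plxnb2 at 21.0 and Plxna3 at 10.1 RPKM did. The 31 genes had a median of 1.92 RPKM, against 3.42 for all 16120 genes tested. Most of the family thus sat below the typical gene of the ganglion in RPKM. Their transcripts had a median exonic length of 5930 bases, against 2816 for all genes tested. RPKM divides by this length, and its part in the lower values was not tested. The median ligand was at 1.54 RPKM and the median receptor at 2.43. Of the 20 ligands 12 had a mean of 1 RPKM or more, and of the 11 receptors 9 did. The median of log2(RPKM + 1) was lower over ligands than over receptors by 0.51 ± 0.18 (SD, n = 6), a score over chosen genes that was not tested, and it was lower in 6 of 6 libraries.

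**Figure D1:**
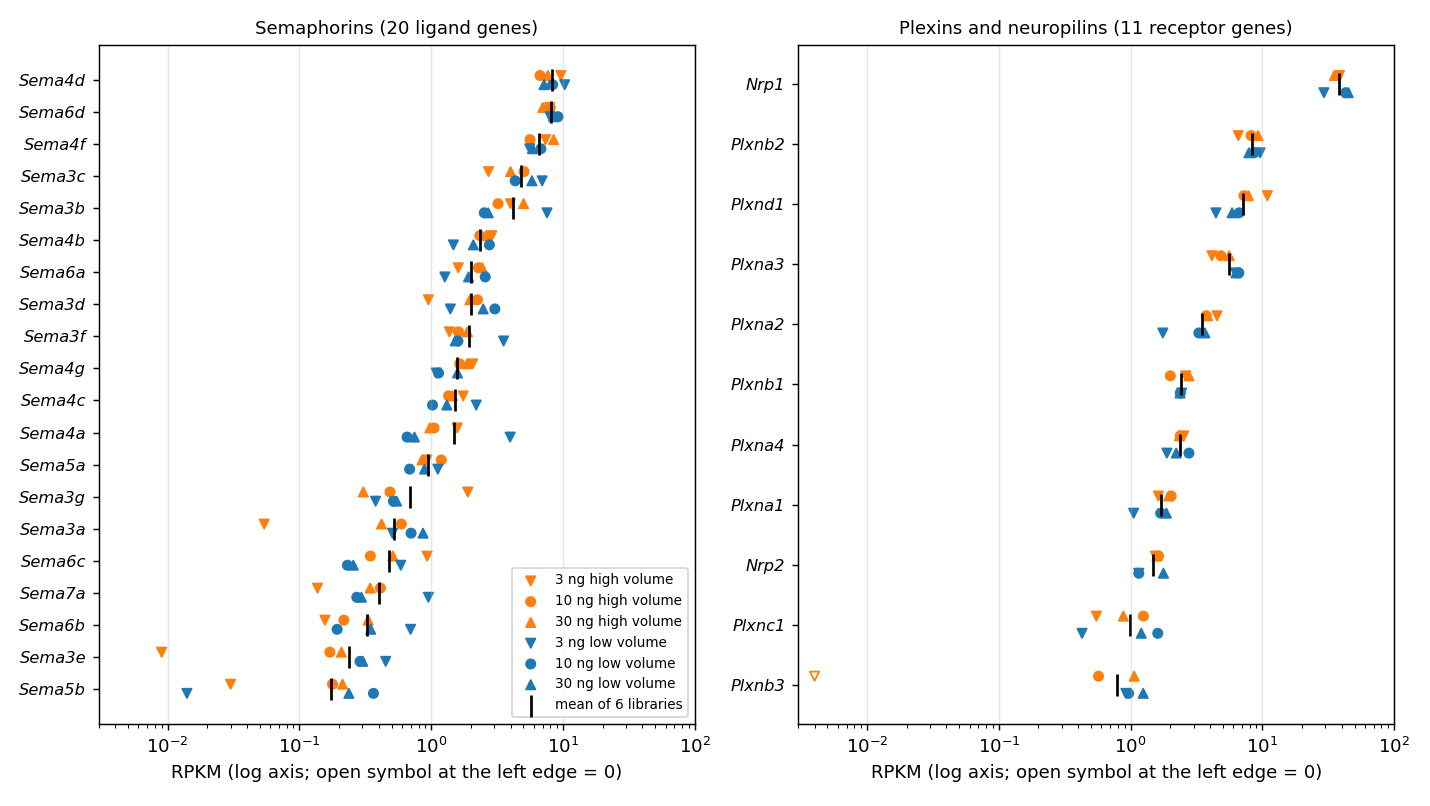
RPKM (log axis) of each semaphorin (left panel) and each plexin and neuropilin (right panel) in each library, with orange for high volume, blue for low volume and a different symbol for each input; the black bar is the mean of 6 libraries. Nrp1 stands apart at 29.3 to 44.8 RPKM, and the 3 ng libraries scatter widely among the low genes.

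The summed RPKM of the ligands was 47.9, 44.6 and 48.5 in the 3, 10 and 30 ng high-volume libraries and 57.9, 47.1 and 45.4 in the low-volume libraries. The summed RPKM of the receptors was 73.4, 70.8 and 72.3 in the high-volume libraries and 59.2, 78.6 and 79.2 in the low-volume libraries. The ligand sum was below the receptor sum in every library, and the narrowest gap was in the 3 ng low-volume library. Nrp1 supplied 48.7% to 56.5% of the receptor sum. Without Nrp1 the receptor sum was 35.0, 33.9 and 37.1 in the high-volume libraries and 29.9, 35.8 and 34.4 in the low-volume libraries, below the ligand sum in every library. That order turned with the choice of transcript. With the transcript of the largest mean RPKM, the receptor sum without Nrp1 was 59.1, 52.2 and 57.8 in the high-volume and 45.6, 58.5 and 56.1 in the low-volume libraries. The ligand sum was then 52.2, 45.8 and 49.6 in the high-volume and 61.9, 49.4 and 45.3 in the low-volume libraries, lower than the receptor sum in 5 of 6.

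Among the ligands, the class 4 semaphorins, which span the membrane, gave the largest class sum at 21.8 ± 2.88 RPKM over 6 genes (SD, n = 6). The 7 secreted class 3 genes summed to 14.3 ± 3.33 RPKM and the 4 transmembrane class 6 genes to 10.9 ± 0.657 RPKM. The 2 class 5 genes, transmembrane proteins with thrombospondin repeats, summed to 1.12 ± 0.140 RPKM. Sema7a, anchored to the membrane by a lipid, was at 0.402 ± 0.284 RPKM.

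The class 3 ligand best known for sensory axons, Sema3a, was among the least abundant. Sema3a had 0.054, 0.593 and 0.419 RPKM in the 3, 10 and 30 ng high-volume libraries and 0.508, 0.702 and 0.865 RPKM in the low-volume libraries. These values rest on 5 tags in the 3 ng high-volume library and on 51 to 174 in the other 5 libraries. The class was instead led by Sema3c, known for its role in the outflow tract of the heart, with 2.72, 5.05 and 3.99 RPKM in the high-volume and 6.93, 4.33 and 5.80 RPKM in the low-volume libraries. Sema3b followed at 3.99, 3.21 and 5.01 RPKM in the high-volume and 7.56, 2.52 and 2.71 RPKM in the low-volume libraries. For both genes the volume groups overlapped and the 3 ng low-volume library was highest. Sema3d averaged 2.01 ± 0.751 RPKM, Sema3f, a ligand of Nrp2, 1.92 ± 0.809 RPKM and Sema3g 0.687 ± 0.598 RPKM (SD, n = 6). Sema3e, which binds Plxnd1 without a neuropilin, had 0.009, 0.170 and 0.208 RPKM in the high-volume libraries and 0.451, 0.288 and 0.302 RPKM in the low-volume libraries. Every high-volume value of Sema3e lay below every low-volume value, with 1 tag behind the lowest.

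Class 4 and class 6 each held an abundant and steady ligand. Sema4d, the ligand of Plxnb1, had 9.62, 6.68 and 7.67 RPKM in the high-volume libraries and 10.3, 8.33 and 7.16 RPKM in the low-volume libraries. Sema6d, a ligand of Plxna1, had 7.90, 7.98 and 7.02 RPKM in the high-volume libraries and 7.97, 9.15 and 8.49 RPKM in the low-volume libraries. Its coefficient of variation over the 6 libraries, 8.73%, was the smallest of the 31 genes. Sema4f had 7.35, 5.61 and 8.47 RPKM in the high-volume libraries and 5.58, 6.78 and 5.86 RPKM in the low-volume libraries. The volume groups overlapped for all 3 of these genes.

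The other class 4 ligands were lower. Sema4b averaged 2.36 ± 0.521 RPKM (SD, n = 6), Sema4c, a ligand of Plxnb2, 1.51 ± 0.407 RPKM and Sema4a 1.49 ± 1.25 RPKM. Sema4g, also a ligand of Plxnb2, had 2.06, 1.64 and 1.87 RPKM in the high-volume libraries and 1.09, 1.14 and 1.58 RPKM in the low-volume libraries, with no overlap. Sema6a, a ligand of Plxna2 and Plxna4, averaged 2.01 ± 0.507 RPKM, Sema6c 0.477 ± 0.263 RPKM and Sema6b, another ligand of Plxna4, 0.324 ± 0.198 RPKM. Sema5a averaged 0.944 ± 0.185 RPKM and Sema5b 0.172 ± 0.133 RPKM, the lowest mean of the family.

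Among the receptors, the 2 neuropilins summed to 39.4 ± 5.66 RPKM, the 4 class A plexins to 13.2 ± 1.23 RPKM, the 3 class B plexins to 11.6 ± 1.47 RPKM, Plxnd1 to 7.16 ± 2.18 RPKM and Plxnc1 to 0.987 ± 0.451 RPKM (SD, n = 6). Nrp1, the co-receptor of Sema3a and of VEGF, had 38.4, 36.9 and 35.2 RPKM in the high-volume libraries and 29.3, 42.8 and 44.8 RPKM in the low-volume libraries. Nrp2, the co-receptor of Sema3f, had 1.54, 1.63 and 1.59 RPKM in the high-volume libraries and 1.15, 1.15 and 1.78 RPKM in the low-volume libraries. The volume groups overlapped for both, with the 3 high-volume values inside the range of the low-volume values.

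Of the class A plexins, which partner the neuropilins, Plxna3 had 4.14, 4.84 and 5.60 RPKM in the high-volume libraries and 6.26, 6.62 and 6.30 RPKM in the low-volume libraries. Plxna2 had 4.52, 3.75 and 3.84 RPKM in the high-volume libraries and 1.76, 3.29 and 3.66 RPKM in the low-volume libraries. Neither gene's groups overlapped, Plxna3 being lower and Plxna2 higher in every high-volume library. Plxna4, a partner of Nrp1 in sensory neurons, had 2.53, 2.38 and 2.34 RPKM in the high-volume libraries and 1.89, 2.77 and 2.22 RPKM in the low-volume libraries. Plxna1 averaged 1.70 ± 0.352 RPKM (SD, n = 6), although 10.7% of its exonic length is shared with Gm26811 and the tags of the 2 genes cannot be told apart.

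Class B and the single-gene classes spanned a wider range. Plxnb2 had 6.56, 8.20 and 9.26 RPKM in the high-volume libraries and 9.61, 8.67 and 7.90 RPKM in the low-volume libraries, with overlap. Plxnb1, the receptor of Sema4d, averaged 2.43 ± 0.261 RPKM (SD, n = 6). Plxnd1, the receptor of Sema3e and best known from blood vessels, had 10.9, 7.24 and 7.83 RPKM in the high-volume libraries and 4.44, 6.66 and 5.89 RPKM in the low-volume libraries, with no overlap. Plxnc1, the receptor of Sema7a, had 0.550, 1.25 and 0.881 RPKM in the high-volume libraries and 0.428, 1.61 and 1.20 RPKM in the low-volume libraries. Plxnb3, the receptor of Sema5a, had 0.571 and 1.07 RPKM in the 10 and 30 ng high-volume libraries and 0.921, 0.965 and 1.25 RPKM in the low-volume libraries. In the 3 ng high-volume library Plxnb3 had 0 tags, which allows a level of up to 0.0321 RPKM when 3 tags are taken as the limit for counting error alone.

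The order of the levels was firm in few places. Nrp1 exceeded the next receptor, Plxnb2, by 29.5 ± 6.19 RPKM, and Plxna4 exceeded Plxna1 by 0.652 ± 0.324 RPKM, each in 6 of 6 libraries and by more than the SD of the difference. The other 8 pairs of neighbouring receptors and all 19 pairs of neighbouring ligands did not meet both conditions. The level of a gene also depends on the transcript taken for it. With the transcript of the largest mean RPKM in place of that with the most tags, the mean was 21.0 RPKM for Plxnb2, 10.1 RPKM for Plxna3 and 5.29 RPKM for Plxna2, while the other genes with a value moved by less than 1 SD.

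Known partners and close paralogs were compared within libraries on log2(RPKM + 1), a scale that understates the ratio of low genes. Nrp1 exceeded Nrp2 by 3.97 ± 0.21 (SD, n = 6 libraries), a 25.7-fold ratio of mean RPKM. Plxnb2 exceeded Plxnb1 by 1.44 ± 0.21, and Plxna4 minus Plxna3 was -0.97 ± 0.28. Among ligands and their receptors, Sema4d exceeded Plxnb1 by 1.43 ± 0.19, whereas Sema3a minus Nrp1 was -4.68 ± 0.30, with Nrp1 72.4-fold higher in mean RPKM, and Sema3e minus Plxnd1 was -2.69 ± 0.55. Each of these 6 differences had the same sign in 6 of 6 libraries. The two-sided exact sign-flip permutation p was 0.0312 for each, the smallest that 6 libraries allow. The Benjamini-Hochberg adjusted p of 0.0417 over 8 pairs thus depended on how many pairs reached that smallest p. The libraries repeat the same pool, so the test shows a repeated sign and adds nothing on the size of a difference.

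The last 2 pairs missed the threshold. Sema6a minus Plxna4 was -0.17 ± 0.19 (SD, n = 6), with Sema6a higher in 1 of 6 libraries and an exact p of 0.0625 (adjusted 0.0714). Its direction turned with the choice of transcript, at 0.05 when the transcript of the largest mean RPKM was used. Sema7a minus Plxnc1 was -0.49 ± 0.51, with Sema7a higher in 1 of 6 libraries and an exact p of 0.0938 (adjusted 0.0938).

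The neuropilins were followed along their exons, because the tail that ends Nrp2 comes in alternative forms. Nrp1 lies on the plus strand at chr8:128359073-128505462 of GRCm38 and Nrp2 on the plus strand at chr1:62703702-62818695. Nrp2 ends in either of 2 alternative terminal exons, the upstream at chr1:62795709-62796981 and the downstream at chr1:62815333-62818695, and the protein tails they encode lie inside the cell. The last 60 coding bases of GENCODE M21 transcripts are shown 5′ to 3′, with the stop codon in capitals, to show which Nrp2 form ends like Nrp1.
Nrp1: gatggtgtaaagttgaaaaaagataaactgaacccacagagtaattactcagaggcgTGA
Nrp2 upstream tail: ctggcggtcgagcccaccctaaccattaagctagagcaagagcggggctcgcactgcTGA
Nrp2 downstream tail: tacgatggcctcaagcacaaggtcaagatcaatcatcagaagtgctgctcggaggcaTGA
Without gaps, 31 of 60 bases of the downstream tail and 18 of 60 bases of the upstream tail were the same as in Nrp1. These counts include the stop codon, which is the same in all the sequences shown, and the match of unrelated sequences was not computed. The end of the Nrp1 tail is known to bind Gipc1, an adaptor protein with a PDZ domain.

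Both terminal exons of Nrp2 were in use. The upstream tail exon, 1273 bases long, held 348 tags over the 6 libraries and the downstream tail exon, 3363 bases long, held 911, which gave 273 and 271 tags per kb. Per library, the upstream tail exon had 3.35, 2.28 and 1.59 RPKM in the high-volume libraries and 1.11, 1.65 and 1.50 RPKM in the low-volume libraries. The downstream tail exon had 1.38, 1.89 and 1.89 RPKM in the high-volume libraries and 1.65, 1.38 and 2.34 RPKM in the low-volume libraries. The upstream exon was the higher in 3 of 6 libraries, and the means of 1.91 ± 0.797 RPKM and 1.76 ± 0.364 RPKM (SD, n = 6) differed by less than either SD. Counts in these exons show where tags fell, and do not count whole transcripts.

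All 17 exons of Nrp1 carried tags, from 1884 tags per kb in exon 1 to 11706 in exon 16 and 7047 in the long last exon, summed over 6 libraries. The 17 exons of Nrp2 lay between 67.4 tags per kb in exon 2 and 639 in the short exon 15. Tags also fell in the introns of Nrp1, most densely in intron 12 with 176 tags per kb, against 44.0 and 35.4 in the introns on either side, and in intron 8 with 168.

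**Figure D2:**
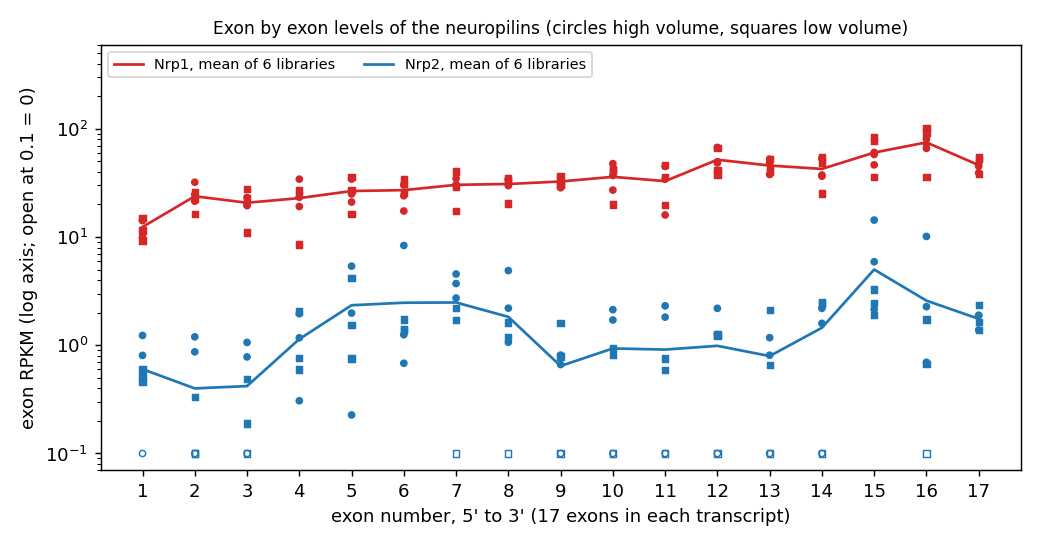
RPKM (log axis) of each exon of Nrp1 (red) and Nrp2 (blue), numbered 5′ to 3′, in each library (circles for high volume, squares for low volume, open symbols at 0.1 for exons without tags), with lines for the mean of 6 libraries. The mean of Nrp1 lies above that of Nrp2 at every exon number, and 12 exons of Nrp2 have libraries without tags.

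The study's main contrast was high against low volume. In the edgeR quasi-likelihood fit across 16120 genes, which all 31 family genes entered, 0 of the 31 differed between volumes after Benjamini-Hochberg adjustment, against 0.0062% of all genes (1 gene). At an unadjusted p under 0.05, 2 of the 31 differed, against 6.67% of all genes. Both were higher in high volume, against 3.36% of all genes, and 0 were lower, against 3.32%. These were Plxnd1, with a log2 difference of 0.75 ± 0.23 (SE) and an edgeR adjusted p of 0.690, and Plxna2, with 0.67 ± 0.27 and an adjusted p of 0.744. In the 10 and 30 ng libraries alone the difference was 0.39 for Plxnd1 and 0.26 for Plxna2. DESeq2 gave an adjusted p for volume to 11 of the 31 genes and none to the other 20, and called 0 of the 11, with the lowest adjusted p at 0.071 for Plxnd1.

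Of the 31 genes 18 had a positive log2 difference (high minus low volume) and the median was 0.09, against 8360 of 16120 genes and a median of 0.02. The ligands split 10 to 10 with a median of 0.02, and 8 of 11 receptors were positive with a median of 0.19. The estimates ran from -1.56 ± 1.03 (SE) for Sema3e, -1.49 ± 1.10 for Plxnb3 and -0.98 ± 0.71 for Sema3a to 0.71 ± 0.34 for Sema4g and 0.92 ± 0.65 for Sema6c. Errors were smaller among the abundant genes, and 7 genes had a mean of 5 RPKM or more. Of these, Sema6d at -0.02 ± 0.14, Plxnb2 at 0.02 ± 0.17, Sema4d at 0.05 ± 0.17 and Nrp1 at 0.09 ± 0.16 lay near 0. The others were Plxna3 at -0.26 ± 0.15, Sema4f at 0.38 ± 0.21 and Plxnd1 at 0.75 ± 0.23.

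**Figure D3:**
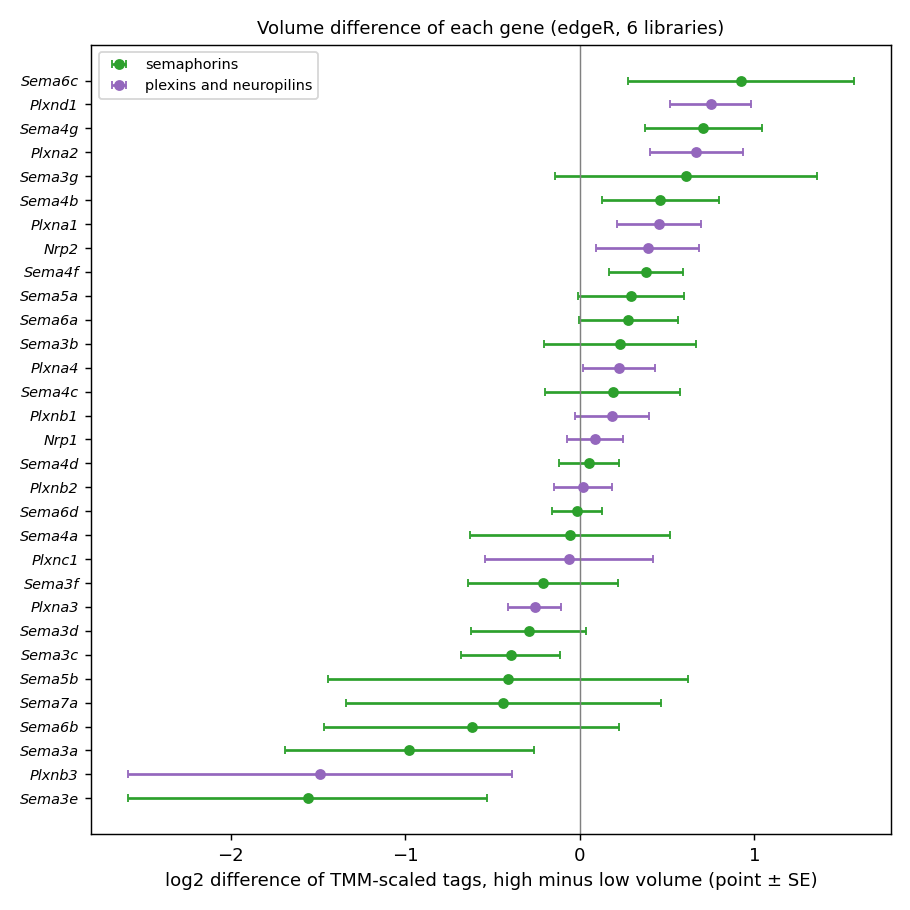
The edgeR log2 difference, high minus low volume, of each of the 31 genes, with bars for the SE, in green for semaphorins and purple for plexins and neuropilins, ordered by size. The values run from -1.56 for Sema3e to 0.92 for Sema6c, and 0 of the 31 passed the adjusted threshold.

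By the deposited RPKM, the volume groups did not overlap for 5 of the 31 genes, against 19.0% of all genes tested (3064 of 16120). Plxnd1, Plxna2 and Sema4g were higher in every high-volume library, against 4.03% of all genes, and Plxna3 and Sema3e were lower, against 15.0%. The share of the family that did not overlap was thus near that of all genes. Beside Plxnd1, the 6 endothelial markers summed to 24.6 to 39.1 RPKM in the high-volume and 40.7 to 41.2 RPKM in the low-volume libraries, while their median edgeR log2 difference, which is TMM-scaled, was 0.05. The 6 spinal cord markers summed to 7.72 to 13.7 RPKM in the high-volume and 2.50 to 4.15 RPKM in the low-volume libraries, with Hes5 the only one at a mean of 1 RPKM or more. The 6 glial markers summed to 899 to 965 RPKM in the high-volume and 989 to 1028 RPKM in the low-volume libraries, with a median log2 difference of 0.11. The 8 sensory neuron markers summed to 3010 to 3780 RPKM in the high-volume and 3795 to 4421 RPKM in the low-volume libraries, with a median log2 difference of 0.02. Single genes weighed heavily in the sums, with means of 2961 RPKM for Tubb3 (neurons), 869 RPKM for Fabp7 (glia) and 16.5 RPKM for Emcn (endothelium). The sums thus do not show a shift of whole marker lists. All 6 libraries came from 1 pool, so these marker differences between volumes are technical. Their part in the values of the 5 genes was not tested.

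Per doubling of input, 0 of the 31 genes and 0% of all genes changed after adjustment in the edgeR fit. At an unadjusted p under 0.05 it was 1 of the 31, Sema4a with a log2 slope of -0.50 ± 0.20 (SE; edgeR adjusted p of 0.625), against 7.77% of all genes. By direction, 0 of the 31 had a positive slope at this limit, against 4.06% of all genes, and 1 a negative slope, against 3.71%. The slopes were positive for 10 of 11 receptors with a median of 0.07 and for 9 of 20 ligands with a median of -0.02, and for 9090 of all 16120 genes with a median of 0.02. An edgeR model with the interaction of volume and input called 0 of the 31 and 0% of all genes. At an unadjusted p under 0.05 the interaction named 5 of the 31, against 8.36% of all genes, each with an adjusted p of 0.583. The term was positive for 2 of them, against 4.27% of all genes, and negative for 3, against 4.09%. These were Plxna2 at -0.41 ± 0.13, Nrp1 at -0.25 ± 0.09, Sema3g at -0.98 ± 0.37, Sema3b at 0.53 ± 0.23 and Plxnb3 at 1.55 ± 0.65 (SE, per doubling of input, high minus low volume).

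The gap between the volumes was widest at the lowest input. Each input had 1 library per volume, so an effect of volume and the scatter of single libraries cannot be told apart here. At 3 ng the median absolute difference between volumes on log2(RPKM + 1) was 0.488 over the 31 genes and 0.433 over all genes tested. At 10 ng it was 0.176 and 0.200, and at 30 ng 0.178 and 0.170. The difference exceeded 1 for 4 of the 31 genes at 3 ng, against 16.5% of all genes, for 0 at 10 ng, against 0.385%, and for 0 at 30 ng, against 0.521%. The spread between libraries was also uneven over the family, with a median coefficient of variation of 39.8% over ligands, 17.7% over receptors and 29.1% over all genes tested. Across the 31 genes, the level and the coefficient of variation had a Spearman correlation of -0.751, given as a description since the genes share their libraries.

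At 3 ng many exons of the family had no tags. Of the 692 exons of the 31 transcripts, 373 were without tags in the 3 ng, 110 in the 10 ng and 83 in the 30 ng high-volume library, and 328, 99 and 73 in the low-volume libraries. Depth differed, so the number expected after thinning every library to the 14160397 tags of the shallowest was computed. It was 373.0, 161.2 and 132.0 in the high-volume libraries and 330.5, 151.4 and 147.0 in the low-volume libraries. At equal depth the 3 ng libraries thus still had at least 2 times as many exons without tags as the 10 and 30 ng libraries of their volume.

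**Figure D4:**
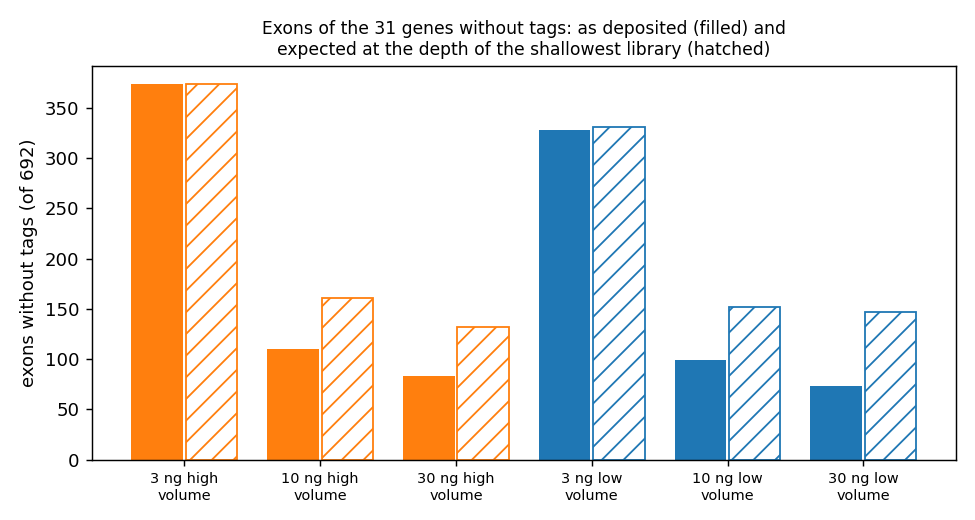
Number of the 692 exons of the 31 genes without tags in each library, as deposited (filled bars) and as computed after thinning to the depth of the shallowest library (hatched bars), with orange for high and blue for low volume. The 3 ng libraries stand at 373 and 328 exons as deposited, and every other library at 110 or fewer.

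Some genes were read in a single exon. In 13 cases of a gene in a library, all tags lay in 1 exon, and these cases belonged to 8 semaphorins and to no plexin or neuropilin. Of the 13 cases 6 were in the 3 ng high-volume library, 5 in the 3 ng low-volume library and 1 each in the 10 and 30 ng high-volume libraries, and in 12 the exon was the last. Some rested on very few tags. In the 3 ng high-volume library Sema3e had 1 tag, Sema5b 2, Sema3a 5 and Sema7a 7, and in the 3 ng low-volume library Sema5b had 1. A single tag can fall only in 1 exon, so the count and its split between ligands and receptors partly restate low tag numbers. Among the receptors, Plxnb3 had tags in 0 of 35 exons and Plxnc1 in 2 of 31 in the 3 ng high-volume library, and Plxna2 in 5 of 32 in the 3 ng low-volume library. Sema4b had 170 tags in the 3 ng high-volume library and 95 in the 3 ng low-volume library, all in the last of its 15 exons. The 51 tags of Sema3a in the 3 ng low-volume library and the 72 tags of Sema3f in the 3 ng high-volume library were likewise all in the last exon. Leaving out the last exons, the tag density of the family was higher toward the 3′ end. The density 3′ of the midpoint of the remaining exons was 2.29, 2.43 and 2.32 times that 5′ of it in the high-volume libraries and 2.33, 2.62 and 2.54 times in the low-volume libraries.

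Intron tags set apart some members. Over the 6 libraries summed, intron tags per kb were 9.54% of exon tags per kb for Sema6a, 6.02% for Plxna4, 5.94% for Nrp2, 5.30% for Sema3e and 4.92% for Sema6d. Intron 15 of the Nrp2 transcript holds the upstream tail exon, and without the 348 tags of that exon the share was 4.57% for Nrp2. The share was 0.241% for Plxnd1, 0.303% for Plxnb2 and 0.331% for Sema3b. Sema6d spans 577801 bases and Plxna4 442267 bases, whereas Plxnb2 spans 15572 and Sema3b 11013. Across the 31 genes, span and this share had a Spearman correlation of 0.462, a description over genes that share their libraries. In 5 genes (Plxna4, Sema3d, Sema3e, Sema6a and Sema6d) the introns held more tags in all than the exons, also without exons of the gene's other transcripts inside them, with 34179 intron tags as deposited and 7482 exon tags for Sema6d. Nrp2 had 1446 intron tags as deposited and 1098 without the upstream tail exon, against 1424 exon tags. Whether intron tags come from unspliced transcripts or from other RNA in the interval was not tested.

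**Figure D5:**
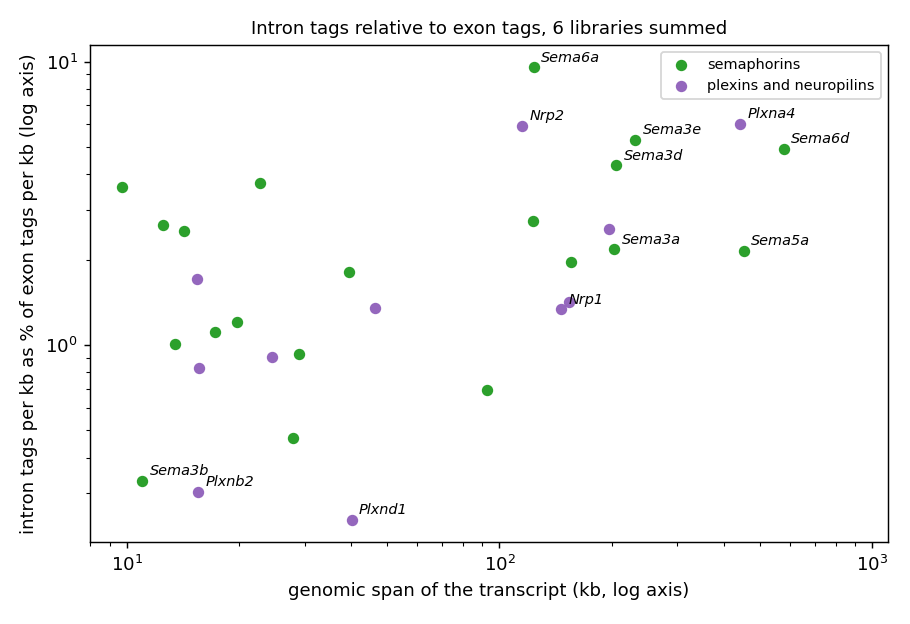
Intron tags per kb as a percentage of exon tags per kb (log axis) against the genomic span of the transcript in kb (log axis), 6 libraries summed, for the 20 semaphorins (green) and the 11 plexins and neuropilins (purple). Sema6a is highest at 9.54% and Plxnd1 lowest at 0.241%, and the 5.94% of Nrp2 includes its upstream tail exon.

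Of the genes that act beside or below these receptors, 4 had a higher mean level than any family member. Of a list of 37 co-receptors, effectors and processing enzymes, the 6 with the highest mean RPKM were Cfl1, the actin-severing protein cofilin, at 1115 ± 158, Dpysl2, the Sema3a effector CRMP2, at 561 ± 141, Rhoa at 131 ± 8.96, the kinase gene Cdk5 at 68.9 ± 5.40, the integrin gene Itgb1, a Sema7a receptor, at 37.4 ± 4.68 and Gipc1, which binds the Nrp1 tail, at 36.5 ± 11.2 (SD, n = 6). Of the 35 tested, 0 passed the adjusted threshold of edgeR for volume or for input. At an unadjusted p under 0.05, 4 of the 35 were higher in high volume, against 3.36% of all genes, and 2 lower, against 3.32%. The slope on input was positive at this limit for 2, against 4.06%, and negative for 6, against 3.71%. For Dpysl2 the log2 difference, high minus low volume, was -0.49 ± 0.10 (SE), with an edgeR adjusted p of 0.534.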

How the data were processed

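The authors deposited, for each transcript, exon and intron of every library, a whole-number read count (tag count) and an RPKM. The submitters' processing notes name CASAVA 1.8, TopHat2 2.0.8, Bowtie2 2.1.0 and the build GRCm38.p1. How tags were counted, which annotation was used and what was done with multiply mapped reads is not given in the sources used here. Coordinates are 1-based on GRCm38. GENCODE M21 named 89664 of 93615 transcripts, in 37086 genes, and the 3951 unmatched transcripts were left out. Each gene was represented by the transcript with the most tags over the 6 libraries, so RPKM values refer to that transcript and tags shared with overlapping genes cannot be split.

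Volume and input were tested on the counts by edgeR 4.0.16 under R 4.3.3 (quasi-likelihood test, TMM scaling, filterByExpr, 16120 genes, volume and centred log2 input, 3 residual degrees of freedom, or 2 with their interaction). P-values were adjusted by Benjamini-Hochberg over all genes tested, with a threshold of 0.05. The script was tested on simulated data with the same dispersion for every gene and library, which leaves out the extra scatter of the 3 ng libraries. Differences within pairs of genes on log2(RPKM + 1) were tested by exact sign-flip permutation with scipy 1.17.1. Exons without tags at equal depth were computed from the binomial distribution. Deviations from the volume means correlated between libraries of the same input (r of 0.132 at 3 ng, 0.111 at 10 ng and 0.127 at 30 ng). Across the 10 and 30 ng libraries r was 0.103 (10 ng high with 30 ng low volume) and 0.066 (30 ng high with 10 ng low volume). Between a 3 ng library and another input it ran from -0.132 to -0.102. Deviations from a volume mean cancel out within that volume, so these negative values partly follow from the positive ones. At sizes up to 0.132 the 3 ng libraries stood only weakly apart, and a pairing of the 10 and 30 ng libraries by input was not shown. A fit with input as a block was run. Alternatives were RLE and total-count scaling, no filter, DESeq2 1.42.0, the transcript of the largest mean RPKM, a pseudocount of 0.1, CPM, the 10 and 30 ng libraries only, and each library left out in turn. All 31 genes, the 37 pathway genes (of which the 6 highest are named) and the marker lists were chosen with earlier results of these data known. A check of GC content was void, since 18 of the 31 genes had a value.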

Additional observations from a re-analysis of the deposited data

Results flagged for a closer look

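For 5 semaphorins, 1 of the 6 libraries lay far from the other 5 in RPKM, by Dixon's test of the gap over the range at the 95% level, and each time it was a 3 ng library. Of the 31 genes 5 passed this limit, against 13.3% of all 16120 genes tested, and 94.6% of those lay apart in a 3 ng library too. Chance alone gives about 1 in 20. Sema3g was at 1.893 RPKM in the 3 ng high-volume library and at 0.305 to 0.545 RPKM in the others, with its 133 tags spread over 11 of 16 exons. Sema3f was at 3.535 RPKM in the 3 ng low-volume library and at 1.371 to 1.882 RPKM in the others. Sema4a was at 3.964 RPKM in the 3 ng low-volume library, from 215 tags over 11 of 15 exons, and at 0.655 to 1.572 RPKM in the others. Sema7a was at 0.95 RPKM in the 3 ng low-volume library, from 53 tags over 8 of 14 exons, and at 0.137 to 0.411 RPKM in the others. Sema6b was at 0.696 RPKM in the 3 ng low-volume library, from 44 tags all in the last exon, and at 0.156 to 0.347 RPKM in the others. The part of low input in these values was not tested.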

How the results depend on the processing

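The number of genes called across the whole table depended on the test, while no family gene with an adjusted p was called for volume or input under any alternative run. DESeq2 gave 11 of the 31 such a value for volume, and the transcript of the largest mean RPKM left 29 to test. For volume, edgeR called 1 gene, against 11 without a filter on low counts, 182 with DESeq2 (92 higher and 90 lower), 278 in the 10 and 30 ng libraries (204 higher and 74 lower) and 0 with input as a replicate block, and between 0 and 2 with each library left out, 0 of them without the 3 ng low-volume library and 2 without the 30 ng high-volume library. The lowest adjusted p of a family gene was 0.071 for Plxnd1 with DESeq2 and 0.110 for Sema3b in the 10 and 30 ng libraries. The edgeR fit of the 10 and 30 ng libraries left 1 residual degree of freedom, against 3 in the main fit, so its calls have little replication behind them. For input, edgeR called 0 genes, against 2 without a filter and 44 with DESeq2, and 0 with each library left out. The block changed no call in the family. Total-count scaling moved the median volume difference of all genes to -0.10. The signs of 0 to 7 family genes turned for volume and of 0 to 9 for input.

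Sema6a minus Plxna4 was -0.92 with CPM, past the threshold (exact adjusted p of 0.0357), and 0.0525 with the transcript of the largest mean RPKM (exact adjusted p of 0.469). The 6 pairs past the threshold kept their sign and stayed past it with a pseudocount of 0.1, CPM or that transcript, but sizes moved. With that transcript Plxnb2 minus Plxnb1 was 2.68 and Plxna4 minus Plxna3 was -1.72. With CPM, Plxna4 minus Plxna3 was -0.54 and Sema4d minus Plxnb1 was 0.79. The ligand minus receptor difference of medians was -0.75 with a pseudocount of 0.1 and -0.31 over genes with a mean of 1 RPKM or more. The ligand sum minus the receptor sum without Nrp1 averaged 14.2 RPKM, and with the transcript of the largest mean RPKM -4.19, with the sign turned. In an alternative added after seeing the data, introns without exons of other transcripts, 5 genes in place of 6 had more intron than exon tags. With each library left out, the difference of medians ran from -0.56 to -0.45. The pairs then ran from 3.89 to 4.00 for Nrp1 minus Nrp2, -4.76 to -4.58 for Sema3a minus Nrp1, -1.06 to -0.90 for Plxna4 minus Plxna3, 1.41 to 1.52 for Plxnb2 minus Plxnb1, 1.37 to 1.47 for Sema4d minus Plxnb1, -2.84 to -2.51 for Sema3e minus Plxnd1, -0.21 to -0.12 for Sema6a minus Plxna4 and -0.68 to -0.38 for Sema7a minus Plxnc1. With 5 libraries the sign-flip test cannot pass the threshold, which accounts for the 6 pairs that no longer did. For the other changes the cause was not tested.

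Tags limit what can be said of the lowest genes: 6 of the 31 had under 10 tags in the 3 ng high-volume library and 1 in the 3 ng low-volume library.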
